A study of Homo sapiens with 4 samples.

Results

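The mRNAs of 10 genes of glucose uptake and glycolysis were followed through RNA immunoprecipitation (RIP) of nuclear SRP9. SRP9 is a subunit of the signal recognition particle, where it contacts the Alu domain of 7SL RNA. The 10 genes were taken from a list of Ensembl gene IDs, and all 10 were found among the 60676 IDs of each count table. They are SLC2A1 (ENSG00000117394), HK2 (ENSG00000159399), ALDOA (ENSG00000149925), TPI1 (ENSG00000111669), GAPDH (ENSG00000111640), PGK1 (ENSG00000102144), PGAM1 (ENSG00000171314), ENO1 (ENSG00000074800), PKM (ENSG00000067225) and LDHA (ENSG00000134333). All 10 passed the filter on low counts and were tested with 41612 other IDs.

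The cells were MiaPaCa, an established human pancreatic cancer line, cultured with 10% serum. They were transfected by electroporation with SRP9 v1 or SRP9 v2, selected with Geneticin, sorted on the acGFP reporter and grown for a further 24 h. Both constructs carried a nuclear localisation signal and 3 FLAG repeats, so every library comes from cells with a tagged, nucleus-directed SRP9. Each variant gave 1 RIP library and 1 input library of whole-cell RNA, which makes 4 groups of 1 library. No untransfected cells and no precipitation without a tagged protein were analysed here, the labels name no clone, and the markers of the cell line were not analysed here.

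Glycolysis converts glucose to pyruvate in the cytosol, and cancer cells often run it at a high rate and reduce the pyruvate to lactate. SLC2A1 encodes the glucose transporter GLUT1, and HK2 the hexokinase that traps glucose as its phosphate. Aldolase (ALDOA) and triosephosphate isomerase (TPI1) make the triose phosphates. GAPDH, PGK1, PGAM1, ENO1 and PKM carry them on to pyruvate, and LDHA encodes a subunit of lactate dehydrogenase. The products of the 8 genes from ALDOA to LDHA are cytosolic enzymes, and that of SLC2A1 is a membrane transporter. Many of these genes are textbook targets of hypoxia-inducible factor.

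The genes lie on 8 chromosomes. In RefSeq on GRCh38.p14 they were all protein-coding, with SLC2A1 at chromosome 1, 42925353 to 42958868, and ENO1 on the same chromosome at 8861000 to 8878686. HK2 lies at chromosome 2, 74834127 to 74893359, and PGAM1 at chromosome 10, 97426191 to 97433444. LDHA lies at chromosome 11, 18394563 to 18408425. GAPDH is at chromosome 12, 6534517 to 6538371, with TPI1 further along at 6867420 to 6870948. PKM lies at chromosome 15, 72199029 to 72231591, ALDOA at chromosome 16, 30064279 to 30070420, and PGK1 at chromosome X, 78104248 to 78129295. The deposited counts were made on GRCh38.p13, which differs from GRCh38.p14 in patches and not in chromosome coordinates.

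The letters ACGTG, the core that hypoxia-inducible factor reads together with its neighbours, were searched on both strands in the 250 bases upstream of each RefSeq start. They were present for 6 of the 10 genes (HK2, LDHA, GAPDH, TPI1, ALDOA and PGK1) against 21.7% of 27305 genes, and in 9 of the members' 15 windows against 18.5% of 35116 windows. Some windows of a gene overlap, and each CACGTG holds a match on both strands. The stretches of LDHA and HK2 are shown because their windows hold the most matches of the 10 genes. They are from RefSeq, GRCh38.p14, plus strand, at chr11:18394451-18394510 and chr2:74834969-74835028, with every match in capitals. The LDHA stretch lies before the gene's RefSeq span. That of HK2 lies inside the span of HK2, upstream of a later RefSeq start of the gene.
LDHA: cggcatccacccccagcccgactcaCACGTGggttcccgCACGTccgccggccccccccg
HK2: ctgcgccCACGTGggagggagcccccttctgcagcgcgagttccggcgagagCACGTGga
A match describes the letters only, and no library here measured a promoter.

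The RIP libraries were much shallower than the inputs, with 3921361 and 5211354 counts for variants 1 and 2 against 50454080 and 58815384. Members had between 146 and 3565 counts in the RIP libraries and between 1692 and 174420 in the inputs, so no value rests on a handful of reads. Levels are given as CPM, the counts relative to the library size, after TMM scaling. TMM sets a library size from a trimmed set of the IDs counted in both libraries compared. It did not make the typical tested ID level, as the median log2 fold change over all tested IDs was 3.65. TMM raised the RIP library sizes 1.496-fold and 1.511-fold and cut the inputs to 0.660 and 0.670 of their totals. Every RIP-to-input ratio depends on this step, and the values on library totals are given further on. Transcript lengths were not used here, so levels are not compared between genes.

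As a group, the 10 genes took up a smaller part of the RIP libraries than of the inputs. They held 0.988% of the counts in the input of variant 1 (95% exact Clopper-Pearson interval 0.985% to 0.991%) and 0.184% in its RIP library (0.180% to 0.188%). With variant 2 the shares were 0.953% (0.951% to 0.956%) and 0.191% (0.187% to 0.195%). The share was thus 5.38 times higher in input than in RIP for variant 1 and 5.00 times higher for variant 2. These intervals, and those below, cover counting error only, since amplified reads are not independent molecules.

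**Figure D1:**
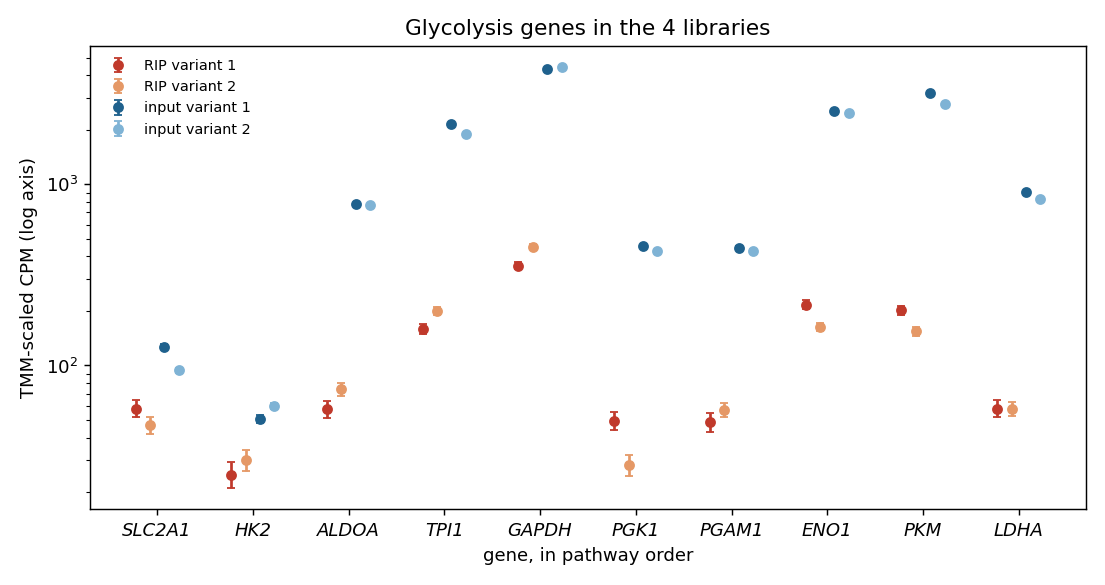
TMM-scaled CPM (log axis) of each gene, in pathway order, in the RIP and input libraries of both variants. Points are single libraries and bars are 95% exact Poisson intervals; all 10 genes have both RIP points below both input points, by a small margin for SLC2A1 and HK2, as did 23.8% of all tested IDs and 99.5% of those with at least 100 CPM in both inputs.

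The genes of glucose entry were about 2-fold lower in RIP under TMM scaling. SLC2A1 had 57.8 CPM in RIP variant 1 (95% exact Poisson interval 51.8 to 64.3) and 46.7 CPM in RIP variant 2 (42.1 to 51.8), against 127 and 94.3 CPM in the inputs. HK2 had 24.9 CPM (21.0 to 29.3) and 29.9 CPM (26.3 to 34.1) in RIP, against 50.8 and 59.6 CPM in the inputs. For both genes the RIP and input values did not overlap. The input was 2.20-fold and 2.02-fold above RIP for SLC2A1 in variants 1 and 2, and 2.04-fold and 1.99-fold for HK2.

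The enzymes of the middle of the pathway stood far lower in RIP. ALDOA, which splits fructose bisphosphate, had 57.2 and 74.1 CPM in RIP variants 1 and 2 and 777 and 771 CPM in the inputs. TPI1, which interconverts the triose phosphates, had 159 and 199 CPM in RIP and 2146 and 1904 CPM in the inputs. The inputs were 13.6-fold and 10.4-fold above RIP for ALDOA, and 13.5-fold and 9.56-fold for TPI1, in variants 1 and 2.

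The same held for the steps from triose phosphate to pyruvate. GAPDH, the dehydrogenase whose mRNA is often used as a reference, had 356 CPM in RIP variant 1 (341 to 371) and 453 CPM in RIP variant 2 (438 to 468), against 4310 and 4423 CPM in the inputs. PGK1, which makes ATP at the next step, had 49.3 and 28.1 CPM in RIP against 457 and 429 CPM. PGAM1, a phosphoglycerate mutase, had 48.5 and 56.9 CPM against 447 and 430 CPM. Of these 3, GAPDH and PGAM1 had the larger RIP value with variant 2, and PGK1 had it with variant 1.

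ENO1, the enolase, had 216 CPM (204 to 228) and 163 CPM (154 to 172) in RIP and 2543 and 2485 CPM in the inputs. PKM, the pyruvate kinase, had 202 CPM (190 to 213) and 154 CPM (146 to 163) in RIP and 3198 and 2794 CPM in the inputs. LDHA had 57.8 CPM (51.8 to 64.3) and 57.7 CPM (52.5 to 63.2) in RIP and 911 and 831 CPM in the inputs. Over these 8 enzymes, from ALDOA to LDHA, input exceeded RIP by 9.23-fold (PGAM1) to 15.9-fold (PKM) with variant 1. With variant 2 the range was 7.56-fold (PGAM1) to 18.1-fold (PKM). PKM thus had the widest separation and PGAM1 the narrowest of the 8 with either variant.

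RIP was compared with input in 1 fit over both variants (edgeR's quasi-likelihood test, Benjamini-Hochberg adjustment over all tested IDs). The variants serve as the samples of each fraction, so the error behind a p-value comes from single libraries and not from repeat cultures. The fit also shares information on spread across IDs, so an SE or p-value does not rest on a gene's own spread alone. All 10 genes were called lower in RIP at an adjusted p under 0.05 and none higher, while 15.8% of all 41622 tested IDs were called lower. That background depends strongly on the input level. Of the 2981 tested IDs with at least 100 CPM in both inputs 97.8% were called lower, and of the 5069 IDs with 20 to under 100 CPM in both inputs 53.6% were. The call of the 8 enzymes, all in the first of these classes, is therefore shared by nearly all IDs of that class. HK2 falls in the lower class, and SLC2A1 crosses the limit between them.

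The sizes of the change split the members into the same sets. PKM had a log2 fold change of -4.07 ± 0.25 (SE, edgeR adjusted p = 0.00060), a 16.8-fold lower level in RIP. LDHA followed with -3.92 ± 0.23 and ENO1 with -3.73 ± 0.24. ALDOA (-3.56), PGK1 (-3.52), TPI1 (-3.50) and GAPDH (-3.43) lay close together, nearer to each other than their standard errors of 0.23 to 0.34. PGAM1 was the least reduced of the enzymes at -3.06 ± 0.24, an 8.33-fold lower level. The edgeR adjusted p of the 8 enzymes ranged from 0.00060 to 0.00099, and each was lower in both RIP libraries. SLC2A1 had -1.08 ± 0.29 (edgeR adjusted p = 0.017) and HK2 -1.01 ± 0.34 (edgeR adjusted p = 0.037). These calls were lost in 9 (SLC2A1) and 11 (HK2) of 12 alternative fits. Over the alternative fits of all 4 libraries, called or not, the edgeR, DESeq2 or limma adjusted p-values ran from 0.0071 to 0.93 for SLC2A1. For HK2 they ran from 0.025 to 0.80. With the construct as a block, HK2 had a log2 fold change of -1.01 and an edgeR adjusted p of 0.095. A fit without 1 library takes its spread from the other fraction alone. In these fits the log2 fold changes stayed between -1.57 and -0.92 for SLC2A1 and between -1.19 and -0.91 for HK2. Without RIP variant 1 the edgeR adjusted p was 0.063 for SLC2A1 and 0.092 for HK2, without RIP variant 2 it was 0.099 and 0.066, and without the input of variant 1 it was 0.15 and 0.088. Without the input of variant 2, HK2 alone was lost (edgeR adjusted p = 0.10).

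**Figure D2:**
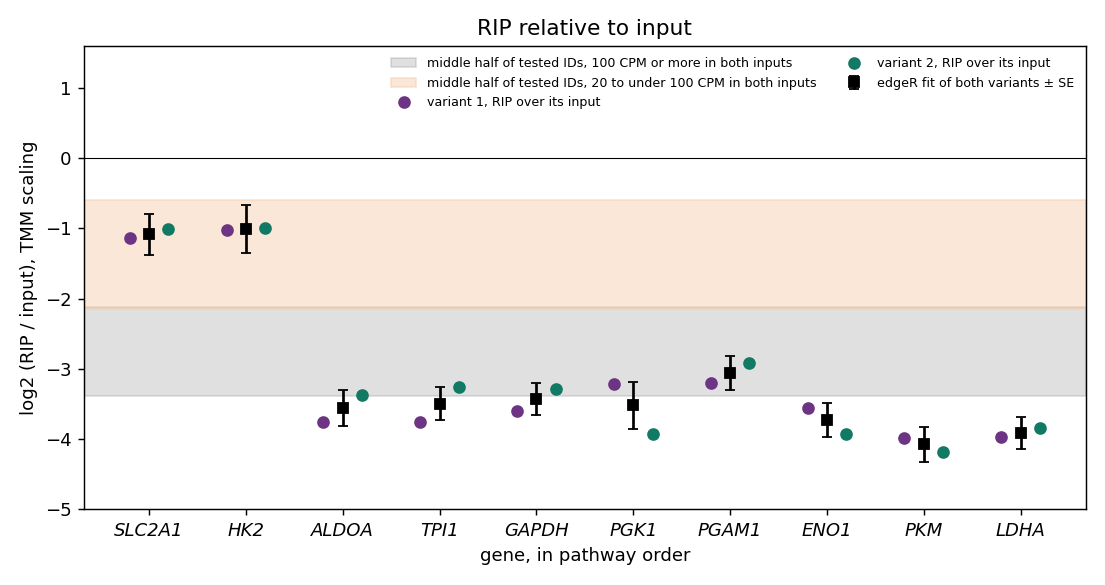
Log2 ratio of RIP to input (TMM scaling) for each gene, with circles for the single variants and squares for the edgeR fit of both, ± SE. Grey and orange bands span the interquartile range of the fit's values over tested IDs with at least 100 CPM and with 20 to under 100 CPM in both inputs; the squares of 7 enzymes lie below the grey band and that of PGAM1 in it, some single-variant circles of the 7 lie inside the band, and SLC2A1 and HK2 lie in the orange band.

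Beside IDs of their own input level, the enzymes held a middle place. The median log2 fold change of the 8 enzymes was -3.54, against -2.74 over the 2981 IDs with at least 100 CPM in both inputs (interquartile range -3.38 to -2.12). That class reaches down to input levels well below those of the enzymes. A class of 568 IDs with 400 to under 4500 CPM in both inputs, which holds all 8 and was set after seeing the data, had a median of -3.46 (interquartile range -3.90 to -2.99). In it, 17.1% of the IDs were lower than PKM, 24.3% lower than LDHA and 33.1% lower than ENO1. For ALDOA, PGK1, TPI1 and GAPDH between 43.5% and 51.8% of the class were lower, and for PGAM1 71.7%. HK2 was above the median of the 20 to under 100 CPM class (-1.34), with 61.8% of its 5069 IDs lower. Over all tested IDs the median was 3.65. These positions are descriptions of single libraries per group, and classes set on the inputs favour a lower RIP value.

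**Figure D3:**
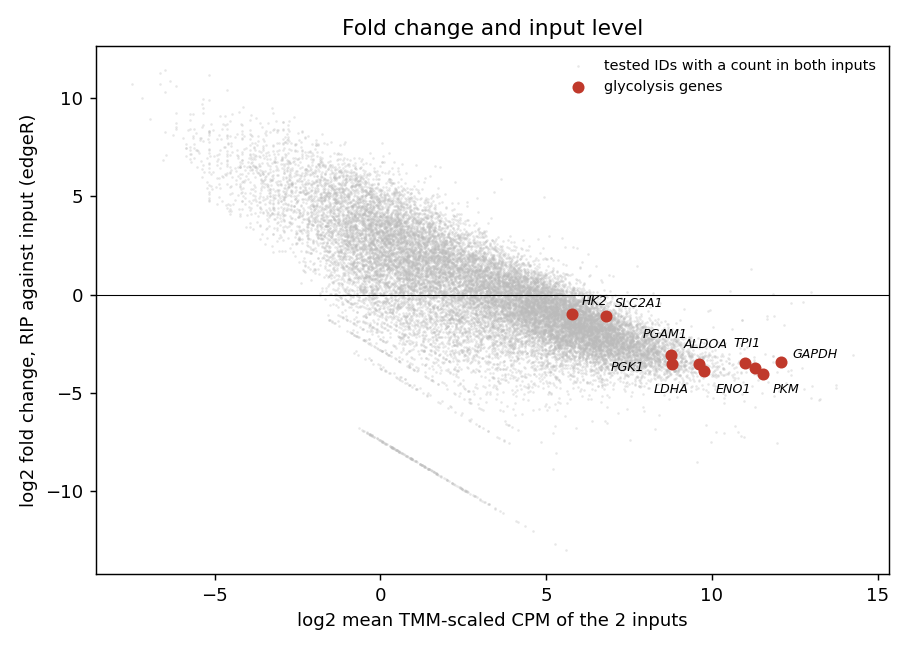
Log2 fold change of RIP against input (edgeR, TMM scaling) plotted on the log2 mean CPM of both inputs, for the 21738 tested IDs with a count in both inputs (grey) and the 10 glycolysis genes (red). The members lie along the falling band of IDs, with HK2 and SLC2A1 higher and at lower input level than the 8 enzymes.

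Within the members, the fold change went with the input level. Across the 10 genes Pearson's r between log2 input CPM and log2 fold change was -0.86 and Spearman's rho -0.65. Over the 8 enzymes alone these were -0.41 and -0.31. They were -0.75 and -0.77 over the 21738 tested IDs counted in both inputs. The input enters both axes and genes are not independent replicates, so these values describe the libraries. Gene span gave no single order. HK2 (59.2 kb in RefSeq) and SLC2A1 (33.5 kb) have the longest spans, but PKM with 32.6 kb had the lowest fold change, and the sign of the relation with log2 span differs between sets. Pearson's r was 0.50 and Spearman's rho 0.16 over the 10 genes, and they were -0.61 and -0.64 over the 8 enzymes.

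On library totals, which take each library's counts as they are, the enzymes were still lower in RIP, and SLC2A1 and HK2 were level. The inputs were 4.07-fold to 7.003-fold above RIP for the 8 enzymes with variant 1 and 3.35-fold to 8.04-fold with variant 2. All 8 were called lower by edgeR with library totals, with log2 fold changes from -2.90 (PKM) to -1.88 (PGAM1), and 76.6% of the IDs with at least 100 CPM in both inputs were also called. SLC2A1 moved to 0.09 ± 0.29 (edgeR adjusted p = 0.79) and HK2 to 0.17 ± 0.36 (edgeR adjusted p = 0.70). As raw rates, SLC2A1 had 86.4 and 70.6 unscaled CPM in RIP against 83.9 and 63.2 in the inputs, and HK2 had 37.2 and 45.2 against 33.5 and 40.0. No direction can therefore be given for these 2 genes.

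**Figure D4:**
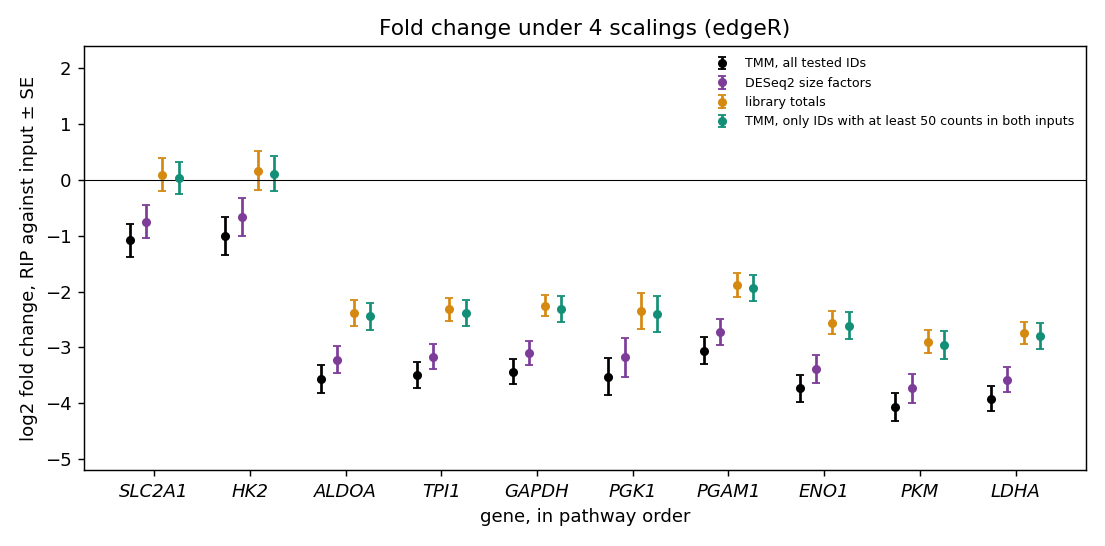
Log2 fold change of RIP against input ± SE (edgeR) under 4 scalings, marked by colour. The 8 enzymes stay below 0 under each scaling, and SLC2A1 and HK2 pass from about -1 with TMM over all tested IDs to just above 0 with library totals and with TMM over IDs that have at least 50 counts in both inputs.

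The distance between members does not depend on scaling. With variant 1, the lower of SLC2A1 and HK2 stood 4.19-fold above the highest of the 8 enzymes in RIP relative to input. With variant 2 it stood 3.75-fold above. IDs of such input levels also lay apart. By the edgeR fit with TMM scaling, the median log2 fold change was -1.34 over IDs with 20 to under 100 CPM in both inputs. It was -3.46 over IDs with 400 to under 4500 CPM, which include the 8 enzymes. HK2 falls in the first class, and SLC2A1 crosses its upper limit. The distance, and the shift against GAPDH below, are therefore not read as traits of SLC2A1 and HK2. Counted against GAPDH of the same library, SLC2A1 went from 2.95% of the GAPDH count in the input of variant 1 to 16.2% in RIP, and from 2.13% to 10.3% with variant 2. HK2 went from 1.18% to 6.996% with variant 1 and from 1.35% to 6.61% with variant 2. The enzymes stayed nearer to GAPDH. Relative to it, RIP over input was 0.892 and 0.939 for ALDOA, 0.900 and 1.02 for TPI1, 1.31 and 1.29 for PGAM1, and 0.763 and 0.539 for PKM, in variants 1 and 2.

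The place of a gene among all IDs by read count fell from input to RIP for 9 of the 10 genes. How many of all IDs fell in place was not counted, so the falls are not read as a trait of these genes. In scaled CPM, 99.5% of IDs with at least 100 CPM in both inputs had both RIP values below both inputs. GAPDH ranked 20 in both inputs and 36 and 21 in RIP variants 1 and 2. PKM ranked 33 and 36 in the inputs and 81 and 108 in RIP, and LDHA 186 and 209 against 1566 and 1371. HK2 fell too, from 5587 and 4994 in the inputs to 7451 and 5445 in RIP. SLC2A1 moved up, from 2503 and 3379 in the inputs to 1566 and 2222 in RIP. Ranks by read count mix expression with transcript length and are compared here only within a gene.

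The variants were then set against each other within a fraction, with no test, as 1 library stands on each side. In bulk RNA, fewer cells expressing a gene and less RNA per cell cannot be told apart. In RIP, 4 genes had a counting interval above 1 for variant 1 over variant 2, 4 had one below 1 and 2 included 1. An interval that excludes 1 was common, with 62.3% of all tested IDs and 70.0% of those with at least 100 CPM in both inputs. PGK1 differed most, 1.76-fold higher with variant 1 (95% exact conditional interval 1.47 to 2.101), from 289 counts with variant 1 and 221 with variant 2. ENO1 was 1.33-fold higher with variant 1 (1.23 to 1.43), PKM 1.31-fold (1.21 to 1.42) and SLC2A1 1.24-fold (1.06 to 1.44). ALDOA was 1.30-fold higher with variant 2 (1.13 to 1.48), GAPDH 1.27-fold (1.21 to 1.34), TPI1 1.25-fold (1.15 to 1.36) and PGAM1 1.17-fold (1.01 to 1.37). LDHA was level, with a ratio of 1.00 (0.868 to 1.16), and HK2 had 0.832 (0.671 to 1.02).

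Neighbouring enzymes of the pathway thus lay on opposite sides in RIP, with GAPDH, TPI1 and PGAM1 higher with variant 2 and PGK1, ENO1 and PKM higher with variant 1. No member reached a 2-fold difference. The log2 difference between the RIP libraries spanned -1.39 to 1.16 from the 5th to the 95th percentile of IDs with at least 100 CPM in both inputs, and the 8 enzymes ran from -0.37 (ALDOA) to 0.81 (PGK1). The enzymes' differences lie within that range, which also covers IDs of lower input level. SLC2A1 and HK2 are outside that class, and the spread at the enzymes' own input level was not counted. There is no replicate to set the differences against.

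The inputs were closer to each other than the RIP libraries for 8 of the 10 genes, SLC2A1 and LDHA being the exceptions. The median absolute log2 difference over the 10 was 0.11 between inputs and 0.33 between RIP libraries. The IDs with at least 100 CPM in both inputs showed the same order. Their 5th to 95th percentiles ran from -0.28 to 0.31 between inputs and from -1.39 to 1.16 between the shallower RIP libraries. The share of all IDs with closer inputs was not counted. SLC2A1 was 1.35-fold higher in the input of variant 1 (1.29 to 1.41), the widest input difference of the 10, and HK2 was 1.17-fold higher in that of variant 2 (1.10 to 1.25). PKM (1.14-fold), TPI1 (1.13-fold) and LDHA (1.10-fold) were higher with variant 1. GAPDH differed by 1.03-fold in favour of variant 2, and ALDOA had a ratio of 1.01 (0.991 to 1.02). Taking RIP over input, the log2 enrichment of variant 1 minus that of variant 2 was 0.72 for PGK1 and 0.37 for ENO1, and -0.49 for TPI1 and -0.38 for ALDOA. For HK2 it was -0.03, for SLC2A1 -0.12 and for LDHA -0.13.

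**Figure D5:**
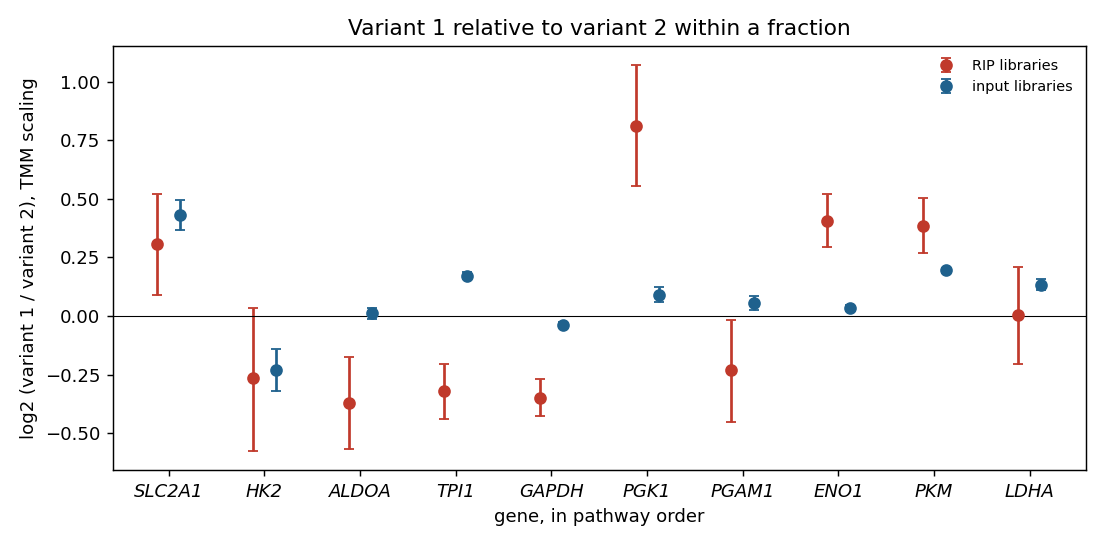
Log2 ratio of variant 1 to variant 2 for each gene in the RIP libraries (red) and the inputs (blue), with 95% exact conditional intervals for counting error. PGK1, ENO1, PKM and SLC2A1 lie above 0 in RIP and ALDOA, TPI1, GAPDH and PGAM1 below it, while all inputs lie between -0.23 (HK2) and 0.43 (SLC2A1).

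Several members share sequence with named copies, which touches how reads could be assigned. RefSeq names 65 pseudogenes of GAPDH, 13 of PGAM1, 6 of LDHA, 5 of PKM, 4 each of TPI1 and ENO1, 2 each of ALDOA and PGK1, 1 of HK2 and 0 of SLC2A1. Counts that were not whole, which arise when reads are split, were present in all 4 libraries for ALDOA and PGAM1, in 3 for GAPDH, and in none for SLC2A1. The IDs of these copies were not matched, so reads exchanged with them were not tested.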

How the data were processed

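Values are the estimated counts per Ensembl gene ID that the authors deposited, 1 table per library, with 13.9% to 18.0% of values not whole. Per the submitters' processing notes, the tools were HISAT2 2.1.0 and featureCounts from Subread 2.0.0 on GRCh38.p13. How shared reads were treated, the strand setting and the annotation release: not given in the sources used here.

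Counts were rounded and tested with edgeR 4.0.16 (R 4.3.3): TMM scaling, expression filter by fraction with a minimum count of 10, quasi-likelihood fit of fraction over the 4 libraries (2 residual degrees of freedom), and Benjamini-Hochberg adjustment over 41622 IDs, called under 0.05. The SE is the coefficient's size over the square root of its F statistic. The fit was tested on simulated data in which few genes changed, in equal numbers up and down. The libraries here differ from that, with 20594 IDs called higher and 6583 lower, so the simulation does not bear on the scaling. Log2 ratios of single libraries used a prior count of 2, and folds are ratios of scaled CPM. Intervals are 95% exact.

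Each input is described as that of the RIP experiment of its variant, per the labels. Over tested IDs, the difference between variants in RIP and that in input correlated at -0.0026, and the variant as replicate block was an alternative. Others were library totals, DESeq2 1.42.0, limma-voom (limma 3.58.1), other filters and leaving out each library.

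All 10 members are named. The members and lists were chosen with earlier results of these data known. The lists of other glycolysis genes and of cell markers were not analysed here, because 0 of 59792 genes in the RefSeq table carry an Ensembl ID; the members' symbols came with the list, and matched RefSeq for all 10.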

Additional observations from a re-analysis of the deposited data

How the results depend on the processing

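Of the 12 alternative fits, all gave 7 to 10 lower calls and 0 higher calls among the 10 genes. The 8 enzymes were called in each, except PKM in limma-voom (adjusted p = 0.077, log2 fold change -4.08). With the construct as replicate block 9 genes were called, HK2 being lost (edgeR adjusted p = 0.095), and it changed no other call. Most IDs with at least 100 CPM in both inputs were called lower too, as the 8 enzymes were. Their share was 76.6% with library totals and 78.3% in the fit of IDs with at least 50 input counts. It was 92.0% to 98.3% in the other alternative fits of all 4 libraries. With 1 library left out, the log2 fold changes of the 8 enzymes lay between -4.45 and -2.97. The median of the IDs with at least 100 CPM in both inputs lay between -3.04 and -2.74. SLC2A1 and HK2 turned direction with library totals (0.094 and 0.17) and in a fit restricted to IDs that had 50 or more counts in each input (0.035 and 0.11). Their single-variant log2 ratios did so too: on library totals 0.043 and 0.16 for SLC2A1 and 0.15 and 0.18 for HK2 (variants 1 and 2), and with TMM over the IDs with at least 50 input counts 0.092 and 0.12 for HK2 and, for variant 2, 0.10 for SLC2A1. Over all tested IDs, library totals moved the median log2 fold change by 1.17 and the share of calls that were higher from 75.8% to 88.1%, and the fit of IDs with at least 50 input counts gave 48.3%. Of 41622 tested IDs, 6583 were called lower in the main fit and 3253 with library totals. The fit of IDs with at least 50 input counts tested only 15450 IDs and called 3658 of them lower. Higher calls went from 20594 in the main fit to 8281 with the replicate block, both of 41622 tested IDs. The strict filter of 50 counts in 2 or more libraries left 8045 higher calls among 23326 tested IDs. The median log2 ratio of the 10 genes (-3.58 and -3.33 for variants 1 and 2) became -2.40 and -2.16 on library totals, -3.24 and -3.0003 with DESeq2 size factors, and -2.46 and -2.22 with TMM over the IDs with at least 50 input counts. Between the inputs it was 0.07, and 0.051 on library totals and 0.10 with DESeq2 size factors. On library totals, LDHA between the RIP libraries turned to -0.011 and ALDOA between the inputs to -0.012. Over IDs with a count in both inputs the members' shares were 0.251% and 0.263% in RIP variants 1 and 2. Without GAPDH they were 0.131% and 0.122% in RIP and 0.704% and 0.657% in the inputs. Another scaling moves all log2 ratios of a library pair by construction, and a filter sets how many IDs are tested. For the lost calls and the changed numbers of calls the cause was not tested further. With 1 library per group, no difference between variants has a replicate check.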

Other observations

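By Euclidean distance over log2 CPM in the 4 libraries, the non-member nearest to the mean profile of the 10 genes was ENSG00000130816, at a distance of 0.086. It had 89.8 and 82.2 CPM in RIP variants 1 and 2 and 788 and 740 CPM in the inputs (edgeR log2 fold change -3.15, adjusted p = 0.00061). The geometric means of the members were 88.2 and 85.9 CPM in RIP and 767 and 723 CPM in the inputs. Next came ENSG00000184110 at a distance of 0.28, with 77.4 and 84.6 CPM in RIP and 707 and 641 CPM in the inputs. The gene names of these IDs were not matched, and 4 libraries cannot tell a shared pattern from a shared level.

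GAPDH held 28.8% and 31.1% of the members' counts in the inputs of variants 1 and 2, and 29.0% and 35.9% in the RIP libraries.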
